A study of Mus musculus with 16 samples.

Results

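The genes described here encode the vacuolar proton pump (V-ATPase) that acidifies lysosomes, and the proteins that build, fill and digest autophagosomes. They were chosen by name: every mouse symbol beginning with Atp6v or with Atg and a digit, and 14 further genes, which are Lamp1, Lamp2, Mcoln1, Tfeb, Tfe3, Sqstm1, Map1lc3a, Map1lc3b, Gabarap, Gabarapl1, Gabarapl2, Becn1, Ulk1 and Wipi1. The rule used no measured value. It finds 58 symbols in the gene table, of which 54 had a probe on the array and 47 were measured, out of 12759 genes measured in all. A gene counted as measured where its probe was well above background in the sample colour on all 4 arrays of at least 1 group, and the brightest such probe stood for it. The measured genes are 9 of 14 of the V1 sector of the pump, 8 of 11 of its V0 sector, 9 of 10 that start the autophagosome, 10 of 12 of the conjugation machinery, all 6 of the ATG8 family with the receptor Sqstm1, all 3 of the lysosomal membrane and both transcription factors. Atp6v0a4, Atp6v1b1, Atp6v1c2, Atp6v1e2, Atp6v1g3, Atg4a and Atg9b had only probes too dim to measure. Atp6v0c-ps1, Atp6v0c-ps2, Atp6v1fnb and Atg4a-ps had no probe. Those with ps in the symbol are pseudogenes, counted because the rule goes by name. The pump sectors were likewise assigned by the start of the symbol, Atp6v1fnb included.

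RNA came from macrophages grown from mouse stem cells and was hybridised to 16 arrays, in 4 groups of 4 biological replicates lettered a to d. Untreated control cells were collected at 0 h. Treated cells were collected at 8 h, after 50 µM heme-albumin, 200 µM heme-albumin or 10 ng/mL LPS. Heme, the iron porphyrin that hemoglobin releases, was given bound to albumin, and lipopolysaccharide (LPS) is a bacterial wall component that activates macrophages. Every array carried the sample in red and untreated reference RNA in green, and the control arrays held untreated RNA in both colours, so a value is a log2 ratio of sample over reference. No strain, genotype or sex is given in the sources used here. Nor is an untreated group at 8 h, or one with albumin alone, analysed here, so 8 h of culture and the agent cannot be told apart in a comparison with the control.

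V-ATPase has a V1 sector in the cytosol, which splits ATP, and a V0 sector in the membrane, which passes protons into the lysosome. Autophagy starts when the ULK1 kinase complex and the Beclin 1 lipid kinase complex seed a membrane, which grows as a conjugation machinery of ATG proteins attaches LC3 and GABARAP proteins to it. The receptor p62, encoded by Sqstm1, carries ubiquitinated cargo into that membrane, and TFEB and TFE3 are transcription factors that bind the CLEAR element in promoters of many lysosomal and autophagy genes. In macrophages the same organelles digest engulfed red cells and bacteria.

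Promoters of 45 of the 58 genes were matched in a RefSeq table of build GRCm38.p6, which gives 250 bases before and 50 bases after each gene's start. The CLEAR core TCACGTG, searched on both strands, was found in 9 of these 45 genes (20 percent), against 4.29 percent of the 27025 genes with a promoter in the table. These 9 were Atg14, Atg3, Atg7, Atp6v0b, Atp6v0d1, Atp6v0e, Atp6v1a, Lamp1 and Mcoln1. The shorter E-box CACGTG, which the core contains, was in 10 of 45 (22.2 percent, against 8.09 percent), Atg5 being the other. TGACNNNGC, the core of the antioxidant response element bound by NRF2, was in 6 of 45 (13.3 percent, against 14 percent): Atg13, Atp6v0a1, Atp6v1a, Atp6v1e2, Atp6v1g2 and Map1lc3b. The stretches below are those of the 6 genes whose CLEAR core lies wholly before the start. Whether TFEB or TFE3 acts on these genes was not tested. The stretches are shown because the RNA of the 2 factors that read this core changed in opposite directions after LPS. They run 5′ to 3′ on the gene's strand, with the core, in either orientation, in capitals.
Atp6v0b, chr4:117887330-117887386, minus strand: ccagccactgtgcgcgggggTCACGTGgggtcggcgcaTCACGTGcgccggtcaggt
Atg7, chr6:114670943-114670989, plus strand: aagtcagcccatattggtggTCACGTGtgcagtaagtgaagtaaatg
Mcoln1, chr8:3500427-3500500, plus strand: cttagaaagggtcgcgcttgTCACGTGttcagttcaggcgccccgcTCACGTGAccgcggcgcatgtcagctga
Lamp1, chr8:13159079-13159160, plus strand: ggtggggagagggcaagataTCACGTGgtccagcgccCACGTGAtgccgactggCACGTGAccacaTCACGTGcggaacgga
Atp6v1a, chr16:44139364-44139411, minus strand: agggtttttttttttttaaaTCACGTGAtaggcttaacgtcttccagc
Atg3, chr16:45158714-45158784, plus strand: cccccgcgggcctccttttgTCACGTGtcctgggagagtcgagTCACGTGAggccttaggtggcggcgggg
Lamp1 held 4 separate blocks within 62 bases of its start, Mcoln1, Atg3 and Atp6v0b held 2 each, and Atg7 and Atp6v1a held 1. A match of letters is a description and not a binding site. Of the 9 genes with a core, 4 fell after LPS (Atg7, Atp6v1a, Mcoln1 and Atg14), 2 rose (Atg3 and Atp6v0e) and 3 did not pass the test, where 44.4 percent of all genes fell and 34.5 percent rose. At 200 µM heme-albumin 1 of the 9 rose, Atp6v0b, and 8 did not pass, where 10.8 percent of all genes rose and 12 percent fell. The promoter of Sqstm1 in the table held none of these 3 motifs within its 250 bases before and 50 bases after the start. Sequence farther away was not searched, so the absence says nothing of sites there.

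Between 49.9 and 59.4 percent of 39429 probes were well above background per array and no spot was saturated. Replicates a and b were scanned on 1 day and c and d on another, each day with all groups, and a group's 4 arrays shared 1 slide position, so position and treatment cannot be told apart. The scanner's quality check marked 8 arrays for evaluation: control a, c and d, heme-albumin 50 µM d, heme-albumin 200 µM a and d, and LPS a and d. On control arrays, 14 of 14 macrophage markers with a probe were well above background on all 4, as were 4 of 7 neutrophil, 3 of 7 embryonic stem cell, 3 of 6 progenitor, 0 of 6 dendritic cell and 1 of 7 fibroblast markers. Pou5f1, Sox2, Zfp42, Kit, Xcr1, Cd209a, Col1a1, Col3a1, Pdgfra and Dcn were above background on none of the 4. Of 7 osteoclast markers 6 were above background on all 4 control arrays, and Calcr on none. Their part in the results was not tested. In bulk RNA, fewer cells of a type and less RNA per cell cannot be told apart.

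The comparison with LPS asks what a bacterial trigger does to these genes. After 8 h of LPS the autophagy genes moved in both directions, with more falling than rising. The pump subunits divided evenly, and both transcription factors changed in opposite directions. A gene passed the test where its limma p was under 0.05 after Benjamini-Hochberg adjustment across the 12759 genes, and was called where it also changed at least 2-fold. After LPS 15 of the 47 genes were higher and 24 lower by the test, where 34.5 and 44.4 percent of all genes were, or 39 in either direction where 78.8 percent of all genes passed. Called were 3 higher and 9 lower, against 14 and 16.7 percent of all genes, and in either direction 12, against 30.8 percent. The median change was -0.15 for the 47 and -0.090 for all genes, and the median size of change was 0.55 against 0.59, so in counts and sizes the 47 lay near the whole array. Ratios of LPS and control arrays did not overlap for 34 of the 47, against 70.3 percent of all genes. The counts by role in the paragraphs that follow are to be read against the same shares of all genes. Whether a role differs from all genes was not tested.

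Heme-albumin moved few of them, and by the test their share lay near that of all genes. At 200 µM 5 genes rose and 6 fell, where 10.8 and 12 percent of all genes did, and 22.8 percent in either direction. Sqstm1 alone was called, where 2.02 percent of all genes were called higher, 0.972 percent lower and 2.99 percent in either direction. Ratios of 200 µM and control arrays did not overlap for 13 of the 47, against 34.9 percent of all genes. The median was -0.041 (all genes -0.022) and the median size of change was 0.10 (all genes 0.14) on the log2 scale. At 50 µM Sqstm1 and Tfe3 rose and none fell by limma, against 2.07 and 1.45 percent of all genes, and 3.52 percent in either direction. At an unadjusted p under 0.05 there 5 were higher and 1 lower, a threshold for which no share of all genes was computed. An ordinary analysis of variance gave 3 higher and 0 lower after adjustment, against 3.46 percent of all genes in either direction. None was called at 50 µM, where 0.29 percent of all genes were called higher, 0.0784 percent lower and 0.368 percent in either direction. Ratios did not overlap the control for 11 of the 47, against 18.7 percent. Of the 11 genes that passed at 200 µM, 4 did so with each replicate letter left out in turn (Sqstm1, Tfe3, Atp6v0b and Atp6v0d2). The other 7 lost the call without at least 1 letter. Of the 4, only Sqstm1 also passed with the red channel alone, and Tfe3 did not pass on the first scan day. After LPS 34 of 39 kept the call with each letter left out, all but Atg10, Atg4c, Atg5, Atp6v1f and Gabarap. No share of all genes was computed for these counts. The 95 percent interval of the change stayed within 2-fold either way for 45 of the 47 at 200 µM, all but Sqstm1 and Gabarapl1, and for all 47 at 50 µM. For all genes these shares were 91.2 and 95.3 percent.

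**Figure D1:**
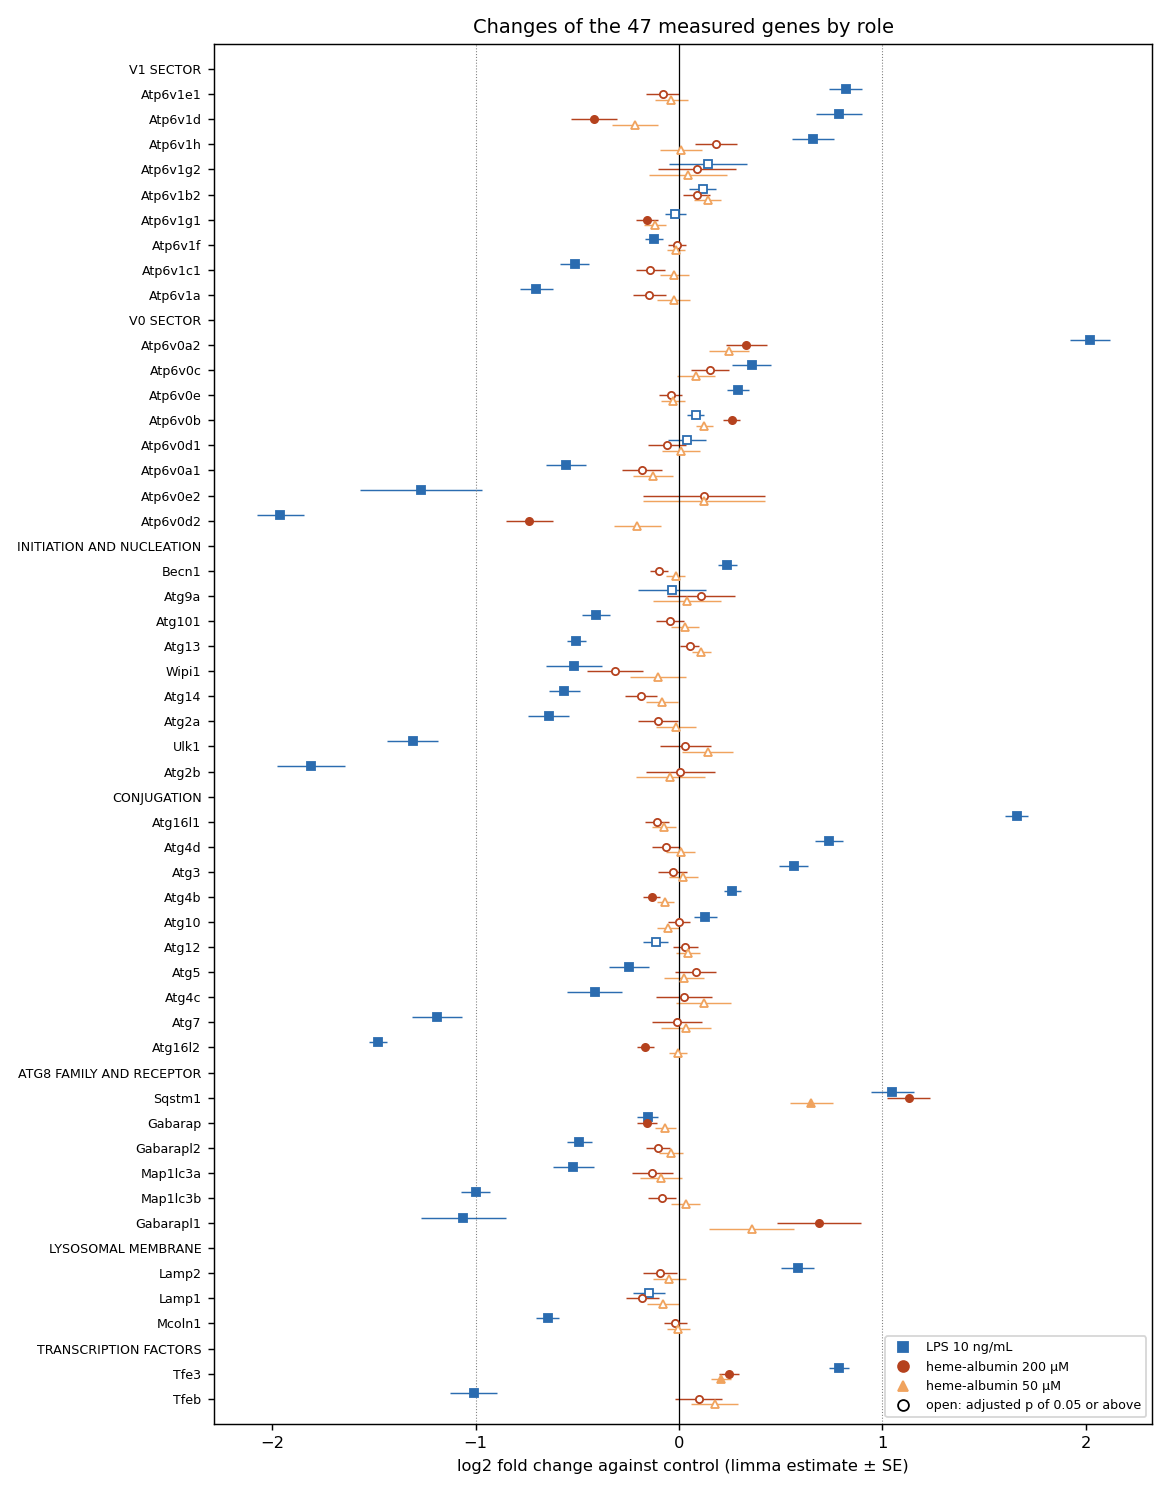
Log2 fold change against the control (x axis, limma estimate ± SE, 4 arrays a group) of each of the 47 measured genes (y axis), grouped by role, for LPS (squares), heme-albumin 200 µM (circles) and heme-albumin 50 µM (triangles); filled symbols passed the test and dotted lines mark 2-fold. LPS spreads the genes from -1.96 (Atp6v0d2) to 2.02 (Atp6v0a2), while most heme-albumin symbols sit near 0 and Sqstm1 lies highest among them.

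Sqstm1, the p62 cargo receptor, rose in all 3 treatments, as did Tfe3, and it was the one gene called at 200 µM heme-albumin. Its log2 ratio was -0.16, -0.19, -0.13 and -0.13 on control arrays a to d and 0.46, 0.51, 0.62 and 0.41 at 50 µM. It was 1.07, 0.87, 1.20 and 0.78 at 200 µM and 1.08, 1.10, 0.79 and 0.64 after LPS. All 12 treated arrays lay above all 4 control arrays, and the 200 µM arrays lay above the 50 µM arrays. The increase was 1.57-fold at 50 µM, a log2 change of 0.65 ± 0.11 (adjusted p = 0.0024), and 2.19-fold at 200 µM, 1.13 ± 0.11 (adjusted p = 2.4e-06). LPS raised it 2.07-fold, by 1.05 ± 0.11 (adjusted p = 3e-07). The higher dose exceeded the lower by 0.48 ± 0.11 (adjusted p = 0.011), a difference that did not pass without replicate a, b or c (adjusted p from 0.057 to 0.099). Between 200 µM heme-albumin and LPS the difference was 0.08 ± 0.11 (adjusted p = 0.5) with a 95 percent interval of -0.15 to 0.31, which spans 0 and differences either way. Within scan days the change at 200 µM was 1.14 on the first and 1.12 on the second, and after LPS it was 1.26 and 0.84. At 50 µM it was 0.65 on both, but 2 arrays a group left the second day at an adjusted p of 0.074.

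The GABARAP and LC3 proteins, the ATG8 family, are the tags that line the autophagosome and bind cargo receptors. All 5 fell after LPS, where 44.4 percent of all genes did. At 200 µM 1 rose and 1 fell, where 10.8 and 12 percent of all genes did. Within this family Gabarapl1 differed most between 200 µM heme-albumin and LPS. On control arrays b, c and d its ratio was -0.088, -0.12 and -0.091, array a being an outlier spot that was left out. It was 0.31, 0.29, 0.27 and 0.16 at 50 µM, 0.60, 0.61, 0.64 and 0.51 at 200 µM and -0.58, -0.79, -1.60 and -1.66 after LPS. Every heme-albumin array lay above, and every LPS array below, the 3 control arrays, and the doses were apart. At 200 µM the change was 0.69 ± 0.21 (adjusted p = 0.029), and with the replicate letter as a block it was 0.62 with an adjusted p of 0.057. It did not pass without replicate b, c or d (adjusted p from 0.074 to 0.13). After LPS it was -1.06 ± 0.21 (adjusted p = 0.00035), larger on the second scan day (-1.53) than on the first (-0.60). At 50 µM it was 0.36 ± 0.21 (adjusted p = 0.5), and in a fit of the 12 control and heme-albumin arrays alone the same 0.36 had an adjusted p of 0.00098. That fit leaves out the wide spread of the LPS arrays, which enters the shared error, and was chosen after the data were seen. The step between doses, 0.33 ± 0.19, did not pass in the fit of all 16 arrays (adjusted p = 0.4). Without the LPS arrays it passed (adjusted p = 0.00053), in a fit where 18.3 percent of all genes passed between doses, against 7.61 percent over 16 arrays. Directly, 200 µM exceeded LPS by 1.75 ± 0.19 (adjusted p = 1.4e-06), a 3.36-fold difference.

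Map1lc3b encodes LC3B, the usual marker protein of autophagosomes. Its ratio was 0.14, 0.045, 0.10 and 0.11 in the control and -0.71, -0.86, -1.10 and -0.93 after LPS, a fall of 2.00-fold (-1.0 ± 0.07, adjusted p = 4.6e-09) with all LPS arrays below all controls. Heme-albumin arrays read 0.20, 0.10, 0.11 and 0.12 at 50 µM and 0.14, -0.00044, -0.08 and 0.012 at 200 µM, which overlapped the control. The 200 µM change was -0.083 ± 0.07 (adjusted p = 0.45). Map1lc3a, its close relative, read -0.018, -0.0059, 0.069 and -0.14 in the control and -0.63, -0.63, -0.40 and -0.51 after LPS, a change of -0.52 ± 0.10 (adjusted p = 0.00029). Its heme-albumin arrays, -0.018, 0.085, -0.21 and -0.30 at 50 µM and 0.034, -0.004, -0.34 and -0.31 at 200 µM, divided by scan day, with replicates c and d lower at both doses.

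Gabarapl2 went from -0.0041, -0.015, 0.039 and -0.09 in the control to -0.47, -0.53, -0.46 and -0.57 after LPS (-0.49 ± 0.06, adjusted p = 2.9e-06). It read 0.044, -0.033, -0.11 and -0.13 at 50 µM and 0.00023, -0.092, -0.28 and -0.11 at 200 µM and passed the test at neither dose. Gabarap itself read -0.17, -0.17, -0.13 and -0.17 in the control, -0.25, -0.21, -0.19 and -0.25 at 50 µM, -0.20, -0.37, -0.40 and -0.28 at 200 µM and -0.22, -0.34, -0.30 and -0.39 after LPS, so every treated array was below every control. Its changes were -0.16 ± 0.05 (adjusted p = 0.035) at 200 µM and -0.15 ± 0.05 (adjusted p = 0.012) after LPS. Its second probe gave -0.042 and -0.068 and passed in neither, and the brighter probe did not pass without replicate b or d in either comparison.

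**Figure D2:**
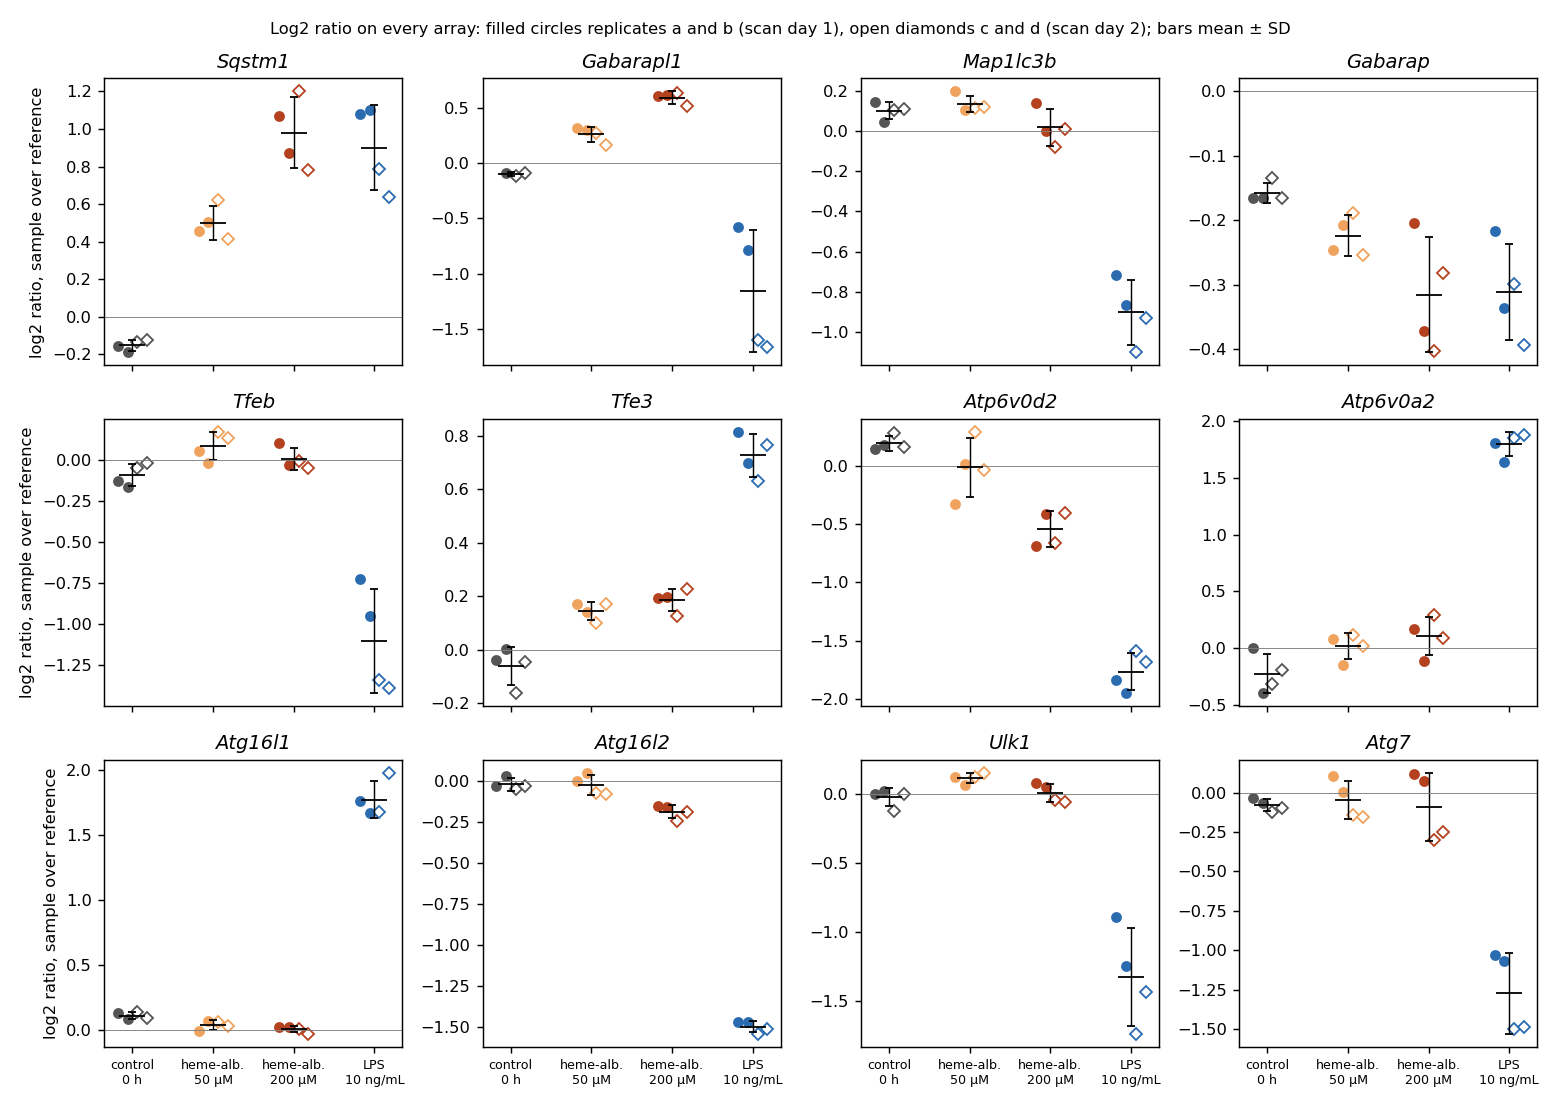
Log2 ratio of sample over reference (y axis) on each array for 12 of the genes, by group (x axis); filled circles are replicates a and b, open diamonds c and d, and bars give the mean ± SD. Sqstm1 and Gabarapl1 step up with the heme-albumin dose, and Atp6v0d2 steps down and lies lowest after LPS. Sqstm1, Gabarapl1, Map1lc3b, Tfeb, Ulk1, Atg7 and, narrowly, Atg16l2 read lower on LPS arrays c and d than on a and b. Atp6v0a2 read higher there.

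The 2 transcription factors changed in opposite directions after LPS. Tfeb, the best known activator of lysosomal genes, read -0.13, -0.17, -0.052 and -0.023 in the control and -0.73, -0.95, -1.34 and -1.39 after LPS, which is 2.01-fold lower (-1.01 ± 0.12, adjusted p = 1.3e-06). The change was -0.69 on the first scan day and -1.33 on the second. Its heme-albumin arrays, 0.053, -0.02, 0.17 and 0.13 at 50 µM and 0.10, -0.031, -0.009 and -0.048 at 200 µM, gave changes of 0.17 ± 0.12 (adjusted p = 0.58) and 0.10 ± 0.12 (adjusted p = 0.61). Tfe3, a relative that binds the same element, rose in all 3 treatments. Its ratio was -0.037, 0.0029, -0.16 and -0.047 in the control, 0.17, 0.14, 0.10 and 0.17 at 50 µM, 0.19, 0.20, 0.13 and 0.23 at 200 µM and 0.81, 0.70, 0.63 and 0.76 after LPS, with no treated array at or below a control array. The changes were 0.21 ± 0.05 (adjusted p = 0.033), 0.25 ± 0.05 (adjusted p = 0.0022) and 0.79 ± 0.05 (adjusted p = 1.4e-09), the first a 1.15-fold and the second a 1.19-fold increase. A second Tfe3 probe gave 0.18 at 50 µM, which did not pass (adjusted p = 0.062), 0.18 at 200 µM and 0.90 after LPS. The doses did not pass the test against each other (0.041 ± 0.05, adjusted p = 0.76). The rise at 50 µM did not pass without replicate a, b, c or d (adjusted p from 0.12 to 0.26), nor within either scan day. The rise at 200 µM did not pass on the first scan day or with the red channel alone.

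In the V1 sector, which hydrolyses ATP, 3 of 9 measured subunits rose after LPS and 3 fell, against 34.5 and 44.4 percent of all genes. Risers were Atp6v1e1 (0.82), a stalk subunit, Atp6v1d (0.79), part of the central rotor, and Atp6v1h (0.66), which couples the sectors. Those that fell were Atp6v1a (-0.70), the catalytic subunit, Atp6v1c1 (-0.51) and Atp6v1f (-0.12), the last not passing without replicate b, c or d. Atp6v1b2, Atp6v1g1 and Atp6v1g2 did not pass, at 0.12, -0.018 and 0.14. At 200 µM the sector ranged from -0.42 to 0.18 and 2 subunits fell, where 12 percent of all genes did.

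Atp6v1d was the one pump subunit that LPS raised and heme-albumin lowered. The control arrays read -0.043, 0.084, 0.082 and 0.026, the 50 µM arrays -0.17, -0.16, -0.22 and -0.17, the 200 µM arrays -0.35, -0.32, -0.51 and -0.34 and the LPS arrays 0.74, 0.41, 1.09 and 1.04. All 4 groups were apart from each other. The change was -0.42 ± 0.11 (adjusted p = 0.015) at 200 µM and -0.22 ± 0.11 (adjusted p = 0.43) at 50 µM, and 200 µM against LPS differed 2.30-fold (-1.20 ± 0.11, adjusted p = 1.4e-07). Without the LPS arrays the change at 50 µM had an adjusted p of 0.015. The fall at 200 µM did not pass without replicate a, without c or without d. Atp6v1g1, a stalk subunit, changed by -0.16 ± 0.053 (adjusted p = 0.047) at 200 µM, and with the replicate block by -0.16 with an adjusted p of 0.060. It did not pass without replicate a, b, c or d.

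The V0 sector held the largest rise and the largest fall of all 47 genes. Atp6v0a2 encodes an isoform of the a subunit, which forms the proton path and sets where in the cell the pump sits. It read 0.0056, -0.39, -0.31 and -0.19 in the control, 0.083, -0.14, 0.12 and 0.025 at 50 µM, 0.17, -0.11, 0.29 and 0.093 at 200 µM and 1.81, 1.64, 1.85 and 1.88 after LPS. LPS raised it 4.05-fold, by 2.02 ± 0.10 (adjusted p = 7.7e-11), and no LPS array overlapped another group. The 200 µM change of 0.33 ± 0.10 (adjusted p = 0.025) was within overlapping arrays and did not pass without replicate c or without d.

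Atp6v0d2, the d subunit isoform known from osteoclasts and fusing macrophages, fell with both agents. Its ratios were 0.15, 0.18, 0.28 and 0.16 in the control, -0.32, 0.019, 0.29 and -0.03 at 50 µM, -0.69, -0.41, -0.66 and -0.40 at 200 µM and -1.84, -1.95, -1.59 and -1.68 after LPS. The 200 µM arrays lay below every control and 50 µM array, and the LPS arrays lay below them in turn. LPS lowered it 3.88-fold (-1.96 ± 0.12, adjusted p = 6.8e-10) and 200 µM heme-albumin 1.66-fold (-0.73 ± 0.12, adjusted p = 0.00032). At 50 µM the 4 arrays spread from -0.32 to 0.29 and the change was -0.20 ± 0.12 (adjusted p = 0.48). The doses differed by -0.53 ± 0.12 (adjusted p = 0.011), and LPS was lower than 200 µM, which exceeded it by 1.22 ± 0.12 (adjusted p = 1.6e-07). A second probe gave -1.84 after LPS and -0.50 at 200 µM. With the red channel alone the fall at 200 µM did not pass. Of the osteoclast markers beside it, 4 of the 6 above background rose after LPS: Mmp9 (1.92), Ocstamp (1.63), Acp5 (0.76) and Ctsk (0.63). At 200 µM none of the 6 passed, their changes running from -0.25 (Ocstamp) to 0.42 (Mmp9). Their part in the fall of Atp6v0d2 was not tested.

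Atp6v0d1, the ubiquitous d isoform, passed in no comparison. It read 0.10, -0.062, 0.057 and 0.0079 in the control, 0.11, 0.033, 0.0068 and -0.0022 at 50 µM, 0.13, -0.052, -0.12 and -0.084 at 200 µM and 0.33, 0.18, -0.18 and -0.067 after LPS. The LPS change was 0.039 ± 0.093 (adjusted p = 0.71), with 0.23 on the first scan day and -0.16 on the second. Under the alternatives it passed upward with normexp and with no background subtraction, and downward on the second scan day. Atp6v0b, part of the membrane ring and one of the genes whose promoter is printed above, rose with 200 µM heme-albumin and did not pass after LPS. The control arrays read -0.22, -0.29, -0.23 and -0.20, the 50 µM arrays -0.07, -0.058, -0.19 and -0.13, the 200 µM arrays 0.013, 0.031, -0.025 and 0.067 and the LPS arrays -0.18, -0.12, -0.18 and -0.14, so the 4 values of each treatment lay above all 4 controls. The changes were 0.12 ± 0.042 (adjusted p = 0.15), 0.26 ± 0.042 (adjusted p = 0.00039) and 0.083 ± 0.042 (adjusted p = 0.082). The last depends on the background correction, the centring and the test: it passed with normexp, with no background subtraction, with arrays centred on their median and by ordinary analysis of variance, its size reaching 0.29. The rise at 200 µM did not pass with the red channel alone.

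Among the other V0 subunits, Atp6v0c (0.36), the main ring protein, and Atp6v0e (0.29) rose after LPS and Atp6v0a1 (-0.55) fell. The Atp6v0c value did not pass with the red channel alone or on the second scan day (0.14, adjusted p = 0.076), and on the first day it was 0.58. The Atp6v0e value rests on 3 control arrays, and with the red channel alone it had the other sign (-0.079). Atp6v0e2 was dim. It read 0.25, 0.06, 0.93 and 0.76 in the control, 0.23, 0.43, 0.84 and 0.97 at 50 µM, 0.72, 0.34, 0.68 and 0.75 at 200 µM and -0.60, -0.32, -1.82 and -0.33 after LPS, where 1 of 4 arrays was well above background. The change of -1.27 ± 0.30 (adjusted p = 0.0013) thus rests on weak spots, and its size ran from -1.92 to -0.30 over the alternatives, smallest with no background subtraction. It did not pass without the arrays marked for evaluation (adjusted p = 0.15).

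Among genes that start the autophagosome, 7 of 9 fell after LPS and 1 rose, where 44.4 and 34.5 percent of all genes did. At both heme-albumin doses 0 of 9 passed, against 22.8 percent of all genes at 200 µM and 3.52 percent at 50 µM. In limma at an unadjusted p under 0.05, 2 of the 9 were lower at 200 µM and 1 was higher at 50 µM. No share of all genes was computed for that threshold. By an ordinary analysis of variance with adjusted p 0 passed at either dose, against 22.8 and 3.46 percent of all genes. Ulk1 encodes the kinase that sets autophagy off. It read -0.0003, 0.021, -0.12 and 0.0024 in the control and -0.89, -1.25, -1.74 and -1.44 after LPS, 2.47-fold lower (-1.31 ± 0.12, adjusted p = 1.6e-07). Its heme-albumin arrays read 0.13, 0.066, 0.12 and 0.15 at 50 µM, all above the controls, and 0.077, 0.053, -0.046 and -0.055 at 200 µM, and the changes of 0.14 ± 0.12 (adjusted p = 0.72) and 0.032 ± 0.12 (adjusted p = 0.9) did not pass. Other parts of the ULK1 complex, Atg13 (-0.50) and Atg101 (-0.41), fell after LPS as well.

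Atg2b carries lipid into the growing membrane. Its ratio was 0.22, 0.20, 0.31 and 0.48 in the control, -0.022, 0.29, 0.38 and 0.39 at 50 µM, 0.12, 0.33, 0.25 and 0.54 at 200 µM and -1.10, -1.25, -2.03 and -1.65 after LPS. LPS lowered it (-1.81 ± 0.17, adjusted p = 1.4e-07), to where 1 of 4 LPS arrays was well above background. The size of that fall depends on the background correction and ran from -2.24 to -0.57 over the alternatives, smallest with normexp, and it passed in each of them. Its relative Atg2a changed by -0.64 ± 0.10 (adjusted p = 2.9e-05), and Atg14, which directs the lipid kinase to autophagy, by -0.56 ± 0.077 (adjusted p = 8.9e-06). At 200 µM Atg14 read -0.01, -0.079, -0.19 and -0.15 where the control read 0.021, 0.11, 0.12 and 0.067, a change of -0.19 ± 0.077 (adjusted p = 0.1). Blocked on scan day it passed (adjusted p = 0.045), as it did with no background subtraction, on the second scan day (-0.26) and in the fit without the LPS arrays, while the first day gave -0.11. Atg9a, the membrane protein of the seed vesicles, did not pass in any comparison with the control.

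Becn1, which encodes Beclin 1, was the exception that rose with LPS. It read -0.22, -0.093, -0.092 and -0.13 in the control, -0.16, -0.12, -0.16 and -0.16 at 50 µM, -0.29, -0.26, -0.25 and -0.13 at 200 µM and 0.079, 0.053, 0.16 and 0.12 after LPS. The LPS change was 0.24 ± 0.046 (adjusted p = 0.00026), and the 200 µM change -0.10 ± 0.046 (adjusted p = 0.15). Wipi1, which binds the lipid that the Beclin 1 complex makes, read -0.082, -0.18, -0.037 and -0.13 in the control, -0.21, -0.14, -0.34 and -0.16 at 50 µM, -0.29, -0.34, -0.62 and -0.43 at 200 µM and -0.18, -0.48, -1.04 and -0.78 after LPS. The LPS change was -0.51 ± 0.14 (adjusted p = 0.0033), of which the first scan day showed -0.20 and the second -0.83, and a second probe gave -0.21 and did not pass (adjusted p = 0.074). At 200 µM every array was below every control and the change was -0.31 ± 0.14 (adjusted p = 0.12). In the fit without the LPS arrays that change had an adjusted p of 0.0046, and the second probe gave -0.35 with an adjusted p of 0.029 over all probes.

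The conjugation machinery was divided after LPS, with 5 of 10 genes higher and 4 lower, against 34.5 and 44.4 percent of all genes. Atg16l1 encodes the protein that places the LC3-attaching complex on the membrane, and Atg16l2 is its relative. Atg16l1 read 0.13, 0.082, 0.14 and 0.092 in the control, -0.0079, 0.071, 0.06 and 0.033 at 50 µM, 0.023, 0.021, 0.0053 and -0.027 at 200 µM and 1.76, 1.67, 1.68 and 1.98 after LPS. Atg16l2 read -0.031, 0.036, -0.049 and -0.031, 0.00022, 0.053, -0.068 and -0.08, -0.15, -0.15, -0.24 and -0.19 and -1.47, -1.47, -1.54 and -1.51 in the same order. LPS raised the first 3.16-fold (1.66 ± 0.059, adjusted p = 2.1e-12) and lowered the second 2.79-fold (-1.48 ± 0.043, adjusted p = 2.4e-13), both on tightly grouped arrays. At 200 µM Atg16l2 fell by a small step, -0.17 ± 0.043 (adjusted p = 0.011), which did not pass without replicate b, c or d, and it differed from 50 µM by -0.16 ± 0.043 (adjusted p = 0.033). Atg16l1, with all heme-albumin arrays below the controls, did not pass (-0.11 ± 0.059, adjusted p = 0.23).

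Atg7, the enzyme that activates both ubiquitin-like systems, read -0.036, -0.066, -0.12 and -0.10 in the control and -1.03, -1.07, -1.50 and -1.49 after LPS. The fall was 2.29-fold (-1.19 ± 0.12, adjusted p = 3.6e-07), and a second probe gave -0.98. At 50 µM it read 0.10, 0.0042, -0.14 and -0.15 and at 200 µM 0.12, 0.074, -0.30 and -0.25, where arrays a and b were above and c and d below all controls. Atg5, which is joined to Atg12, read -0.043, 0.063, 0.077 and 0.10 in the control, 0.13, 0.061, -0.00051 and 0.10 at 50 µM, 0.15, 0.14, 0.05 and 0.18 at 200 µM and 0.12, -0.082, -0.51 and -0.31 after LPS. Its LPS change of -0.24 ± 0.10 (adjusted p = 0.035) was -0.50 on the second scan day and 0.0078 on the first, and did not pass without replicate b, c or d.

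Atg3, which hands LC3 to the membrane lipid, rose after LPS by 0.56 ± 0.072 (adjusted p = 3.8e-06). Atg10 passed at 0.13 with 1 probe while its second gave -0.27, and Atg12 did not pass at -0.12 while its second probe gave 0.53, so these have no settled direction. The proteases that trim LC3 also parted: Atg4b and Atg4d rose and Atg4c fell. Atg4b read -0.20, -0.26, -0.30 and -0.24 in the control, -0.37, -0.30, -0.31 and -0.30 at 50 µM, -0.35, -0.36, -0.39 and -0.44 at 200 µM and 0.019, 0.083, -0.049 and -0.011 after LPS, for changes of 0.26 ± 0.042 (adjusted p = 3.9e-05) after LPS and -0.13 ± 0.042 (adjusted p = 0.032) at 200 µM, the latter not passing without replicate a, b, c or d. Atg4d rose by 0.74. The Atg4c change of -0.41, which did not pass without replicate c or d, lay on LPS arrays c and d, which read -0.85 and -0.62 where a and b read 0.0047 and -0.11.

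Of the lysosomal membrane genes, Mcoln1, the calcium channel of the lysosome, fell after LPS. It read -0.22, -0.22, -0.28 and -0.27 in the control, -0.21, -0.21, -0.29 and -0.29 at 50 µM, -0.14, -0.21, -0.40 and -0.31 at 200 µM and -0.82, -0.99, -0.88 and -0.88 after LPS, a change of -0.65 ± 0.057 (adjusted p = 6.4e-08) after LPS and -0.017 ± 0.057 (adjusted p = 0.87) at 200 µM. Lamp2, a main protein of the lysosomal coat, read 0.094, 0.12, 0.0077 and 0.031 in the control, 0.011, -0.047, 0.014 and 0.091 at 50 µM, 0.032, -0.029, -0.12 and 0.0082 at 200 µM and 0.64, 0.37, 0.73 and 0.86 after LPS. It rose by 0.58 ± 0.082 (adjusted p = 1.1e-05), while a probe to another Lamp2 transcript gave 0.14 after LPS and did not pass. Nor did the first probe with the red channel alone (0.094, adjusted p = 0.54). Lamp1, its relative, read 0.33, 0.18, 0.22 and 0.023 in the control. On replicates b, c and d, its array a spots being outliers, it read 0.14, 0.062 and 0.12 at 50 µM, 0.018, -0.11 and 0.12 at 200 µM and -0.0023, -0.02 and 0.14 after LPS, and it passed in no comparison. Under the alternatives its fall after LPS passed with normexp, with no background subtraction, with the red channel alone and without replicate d. The size of that fall reached -0.37 over the alternatives. Without replicate d it passed at 200 µM too.

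Dose by dose, 3 of the 47 genes passed the test between 200 and 50 µM: Sqstm1 was higher at the higher dose, and Atp6v0d2 and Atg16l2 were lower. Of all genes 4.2 percent were higher and 3.41 percent lower, 7.61 percent in all. None of the 47 was called, where 0.619 percent of all genes were called higher, 0.196 percent lower and 0.815 percent in either direction. The arrays of the doses did not overlap for 8 of the 47, against 20.8 percent. Each of the 3 lost the call without at least 1 replicate letter. Both doses are measured against the same 4 control arrays, so their changes are set side by side here and not correlated.

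**Figure D3:**
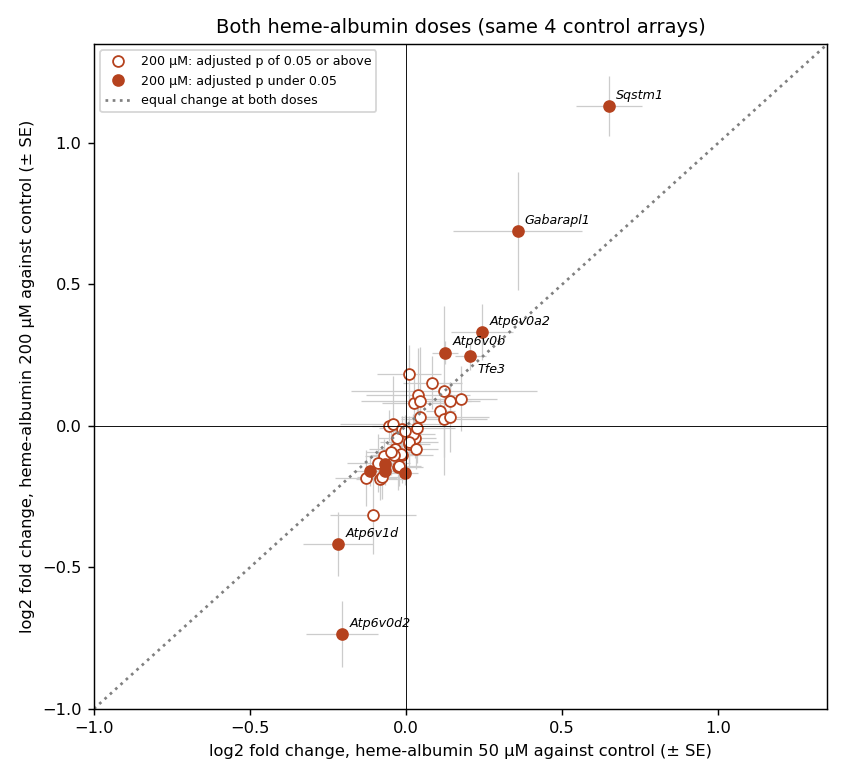
Log2 fold change against the control at 50 µM (x axis) and at 200 µM heme-albumin (y axis), each ± SE with 4 arrays a group, for the 47 genes; filled circles passed the test at 200 µM, and names are given for those that passed and changed by over 0.2. Sqstm1 (0.65 and 1.13), Gabarapl1 (0.36 and 0.69) and Atp6v0d2 (-0.20 and -0.73) lie farthest from 0, and the dotted line marks equal change.

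Set directly against LPS, 200 µM heme-albumin left 24 of the 47 genes higher and 14 lower, where 44.7 and 34.6 percent of all genes were, or 38 in all against 79.3 percent. Called were 8 higher and 3 lower, against 16.8 and 13.6 percent, 11 in all against 30.3 percent. The arrays did not overlap for 33 of the 47, against 68.6 percent. The 8 were Atg2b (1.82), Gabarapl1 (1.75), Atp6v0e2 (1.39), Ulk1 (1.34), Atg16l2 (1.31), Atp6v0d2 (1.22), Atg7 (1.18) and Tfeb (1.11), and the 3 lower were Atg16l1 (-1.77), Atp6v0a2 (-1.69) and Atp6v1d (-1.20). Atg2b and Atp6v0e2 were well above background on 1 of 4 LPS arrays, and with normexp their differences were 0.51 and 0.30, so their sizes have no order among the 8. Of 9 genes that passed both after LPS and at 200 µM, 6 moved the same way: Sqstm1, Tfe3 and Atp6v0a2 upward, and Atp6v0d2, Atg16l2 and Gabarap downward. Gabarapl1, Atp6v1d and Atg4b moved in opposite ways. Both changes are measured against the same 4 control arrays, and no share of all genes was computed for these counts, so they only describe. Atp6v0b and Atp6v1g1 passed at 200 µM and not after LPS, and the direct comparison passed for both (0.18 ± 0.042, adjusted p = 0.0013 and -0.14 ± 0.053, adjusted p = 0.026), though neither held under every alternative. For Atp6v0b it turned to -0.059 with normexp and -0.042 with no background subtraction, and did not pass with arrays centred on their median. For Atp6v1g1 it did not pass without replicate a or c or within either scan day, and the red channel alone gave 0.13.

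Of 15 pairs of related measured genes, both members passed in opposite directions in 6 after LPS, in 1 at 200 µM and in 0 at 50 µM. Of all genes 34.5 percent rose and 44.4 percent fell after LPS, 10.8 and 12 percent at 200 µM and 2.07 and 1.45 percent at 50 µM. These are shares of single genes. No share was computed for pairs of unrelated genes, so the counts do not set related genes apart. Among the 6 pairs after LPS the widest gap was 3.14 on the log2 scale, between Atg16l1 and Atg16l2. Then came Atp6v0a1 and Atp6v0a2 (2.57), then Tfeb and Tfe3 (1.80), Atp6v0e and Atp6v0e2 (1.56, with the dim second gene), Atg4c and Atg4d (1.15) and Atg4b and Atg4c (0.68). The single pair at 200 µM was Gabarap and Gabarapl1, 0.85 apart, and the second Gabarap probe did not pass there (-0.042). Atp6v0d1 and Atp6v0d2 lay 2.00 apart after LPS, but only the second passed. Some pairs share a gene, and they are a description with no test.

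**Figure D4:**
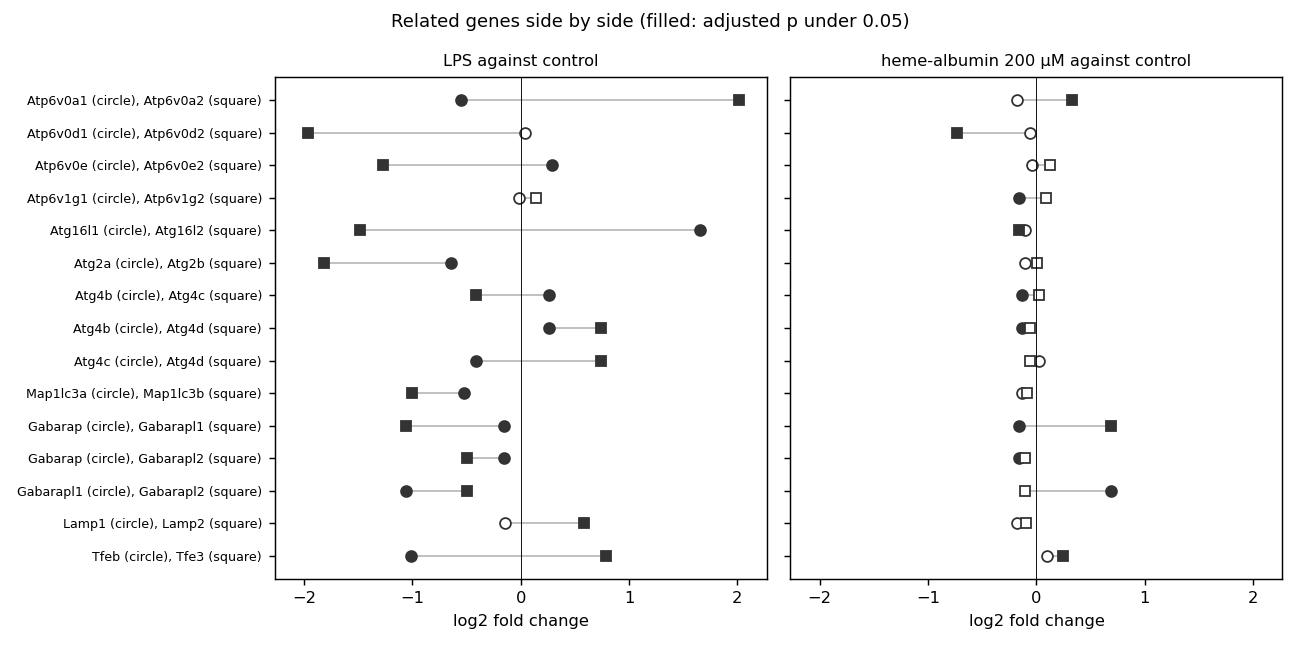
Log2 fold change (x axis) of each of 15 pairs of related genes (y axis), the first gene a circle and the second a square, after LPS (left) and at 200 µM heme-albumin (right), 4 arrays a group; filled symbols passed the test. After LPS the Atg16l1 and Atg16l2 symbols stand 3.14 apart on either side of 0, and at 200 µM most pairs stand close together near 0.

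Genes of the same pathway outside the rule were read from lists, beside which stand the shares of all genes: after LPS 34.5 percent rose and 44.4 percent fell (median -0.090), at 200 µM 10.8 and 12 percent (median -0.022), and at 50 µM 2.07 and 1.45 percent. Of 29 lysosomal hydrolases other than cathepsins, 14 fell and 1 rose at 200 µM (median -0.18), and 20 fell and 6 rose after LPS (median -0.57). Lgmn, the protease legumain, fell by 0.85 at 200 µM and by 0.39 at 50 µM. Lipa, the lysosomal acid lipase, was the 1 that rose (0.78, adjusted p = 0.0027). After LPS, Lipa fell by 1.29 and Galc, the galactosylceramidase, fell by 2.83, while Sgsh rose by 1.51 and Acp2, a lysosomal acid phosphatase, by 1.40.

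Of 17 other autophagy genes, 7 rose and 10 fell after LPS, with Ulk2 at -1.21, Wdr45 at -1.17 and Sh3glb1 at 1.05. At 200 µM 2 rose and 7 fell, led by Vmp1, a membrane protein of early autophagosomes (0.64, adjusted p = 1.7e-05), Uvrag at -0.41 and Ulk2 at -0.38. Vmp1 also rose at 50 µM (0.30) and differed between the doses (0.34, adjusted p = 0.0098). Plekhm1, an adaptor for fusion with the lysosome, was the other gene that rose at 50 µM (0.34, adjusted p = 0.011), and it was the other that rose at 200 µM (0.24) while it fell after LPS (-0.79). Of 14 other autophagy receptors, 3 rose and 8 fell after LPS and 0 rose and 5 fell at 200 µM. Retreg1, a receptor for the endoplasmic reticulum, fell with both agents (-1.82 and -0.56), Ccpg1, another such receptor, fell after LPS (-1.91), and Bnip3, a mitochondrial one, rose (1.81). Calcoco1 (-0.37) and Wdfy3 (-0.31) fell at 200 µM. Ncoa4, the receptor for ferritin, passed in no comparison with the control (0.29 at 200 µM, adjusted p = 0.38). It lay outside the naming rule and was chosen after its values were seen.

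Of 21 other lysosomal membrane genes and accessory subunits, 7 rose and 12 fell after LPS, and 1 rose and 4 fell at 200 µM. The riser was Slc11a1, a divalent metal transporter of the phagosome, at 0.93 at 200 µM and 0.51 at 50 µM. Tpcn1, a cation channel, fell by 2.29 after LPS and by 0.28 at 200 µM. Ctns, the cystine exporter, fell by 1.52 and Clcn7, a chloride and proton exchanger, rose by 1.26 after LPS, and Scarb2, the receptor that brings glucocerebrosidase to lysosomes, fell by 0.39 at 200 µM. Of 24 measured genes that dock the MTORC1 kinase on the lysosome or control TFEB, 5 rose and 12 fell after LPS, and 3 rose and 7 fell at 200 µM. Tfec, a relative of Tfeb and Tfe3, rose in all 3 treatments, by 1.34 after LPS, 1.45 at 200 µM and 0.76 at 50 µM. Mitf, of the same family, rose at 200 µM (0.54, adjusted p = 0.011). Rptor, a subunit of MTORC1, fell at both doses (-0.63 and -0.35), and Rragb and Sesn1 fell after LPS (-3.09 and -2.10).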

How the data were processed

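The members and gene lists were chosen with earlier results of these data known. Each array's deposited scanner file held red and green intensities that, per the file headers, Agilent Feature Extraction 10.7.3.1 had background-subtracted and dye-normalized (linear and lowess), and a log10 ratio of red over green made from them. Per the labels' protocols, the authors ran an analysis of variance on the log10 ratios with a 2-fold filter.

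Here each ratio was multiplied by log2 of 10. Control and outlier spots were left out, spots of a probe were averaged, and the brightest probe above background on all 4 arrays of a group stood for its gene. Group means over all 16 arrays were compared with limma 3.58.1 (R 4.3.3; lmFit and eBayes), with p adjusted over 12759 genes. The code was tested on simulated data. Arrays limit the precision by their number, 4 a group. Described as independent biological replicates, they carry no word on what was independent, so p-values measure the spread between these samples.

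Values per array are given for a set of 19 genes and for up to 10 more per comparison with the control, those with the largest change that passed without overlap. For other lists the 3 genes with the largest change that passed are named per comparison with the control, apart from 1 gene that is not reported here. Same-letter samples deviated together at 200 µM (correlations with the control from 0.165 to 0.333) and 50 µM (0.223 to 0.296), so blocked values stand beside calls they change. After LPS the lowest was 0.0988. Samples of different letters reached 0.194 at 200 µM, 0.216 at 50 µM and 0.0951 after LPS. Each letter was hybridised on 1 slide of its own, so a shared replicate and a shared slide cannot be told apart. Alternatives covered background, centring, the red channel, filters, probe choice, an ordinary analysis of variance, the block, scan days and left-out replicates. Leaving out arrays marked for evaluation, and a fit without the LPS arrays, were added after the data were seen.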

Additional observations from a re-analysis of the deposited data

Results flagged for a closer look

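Among 100 sets of 4 arrays (26 genes in 4 groups, 4 sets with a left-out spot not tested), 4 had 1 array far from the other 3, where chance gives about 1 in 20. Control array c of Gabarap read -0.134, the others lying at -0.165. Control array c of Ulk1 read -0.121, the others between -3e-04 and 0.0207. At 50 µM heme-albumin, array b of Becn1 read -0.117, the others between -0.162 and -0.159, and array a of Atg4b read -0.366, the others between -0.307 and -0.301.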

How the results depend on the processing

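Across the values recomputed for 26 genes, with the promoter motif counts, 2124 kept their side of the threshold, 125 lost the call and 28 gained one. In 4 the direction reversed where at least 1 of the fits passed. Values that passed in neither fit were counted as kept whatever their sign, and some of these changed direction. The reversals were Atp6v0d1 after LPS (-0.156 on the second scan day), Atg5 after LPS (0.0078 on the first), and Atp6v0b at 200 µM against LPS (-0.0592 with normexp, -0.0415 with no background subtraction). The cause was not tested. After LPS, 8 genes rather than 15 were higher without the arrays marked for evaluation, which leaves 1 control array. There 9 were called lower, but 4 with normexp, 5 with no background subtraction, 4 on the first scan day, and 5 to 9 with a replicate left out. At 200 µM, 5 were higher, but 2 with the red channel alone, 3 on the first scan day, 1 without the marked arrays and 3 to 5 with a replicate left out. Lower were 6, but 2 with normexp, 0 with the red channel, 1 on the first and 10 on the second scan day, 0 without the marked arrays, 11 in the fit without LPS arrays and 1 to 3 with a replicate left out. At 50 µM, 2 were higher, but 1 with normexp, 0 with the red channel, 1 on the first and 0 on the second scan day, 0 without the marked arrays, 4 without LPS arrays and 1 with any replicate left out. Lower were 0, but 1 without LPS arrays. Between doses, 1 was higher, but 0 with the red channel, 2 with no filter on dim probes, 2 by ordinary analysis of variance, 0 without the marked arrays, 3 without LPS arrays and 0 to 1 with a replicate left out. Lower were 2, but 0 with normexp, the red channel, the first scan day or without the marked arrays, 1 with no background subtraction, the mean of probes or the second scan day, 4 without LPS arrays and 0 to 1 with a replicate left out. At 200 µM against LPS, 8 were called higher, but 4 with normexp and 5 with no background subtraction. All genes called there in either direction numbered 3872, but 2833 with normexp and 2929 with no background subtraction. After LPS all genes called numbered 3924, but 2896 with normexp, 2971 with no background subtraction and 3659 on the first scan day. The share of all genes passing moved with the setting too. At 200 µM it was 22.8 percent, but 10.3 with normexp and 10.1 with the red channel. It was 17.1 percent on the first scan day, 29.1 on the second and 37.8 without LPS arrays. At 50 µM it was 3.52 percent, but 2.13 with normexp, 0.831 with the red channel and 8.45 without LPS arrays. Between doses it was 7.61 percent, but 2.27, 2.23 and 18.3 in the same settings. With the replicate block 4 genes were higher and 5 lower at 200 µM, where 25.6 percent of all genes passed. The block also passed Atp6v0c at 200 µM against LPS (-0.204, adjusted p = 0.03) and, after LPS, Atg12 (-0.115) and Atp6v1b2 (0.117), and beside the 2 calls the report names it changed no other. Dim probes (Atp6v0e2, Atg2b and Atp6v1g2) limit what can be read after LPS.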
